A study of Homo sapiens with 7 samples.

Results

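The TEAD transcription factors and the proteins that dock on them were followed at the mRNA level after both co-activators of the group had been targeted by siRNA. Members were chosen by name alone: the co-activators YAP1 and WWTR1 (the gene for TAZ), the DNA-binding factors TEAD1, TEAD2, TEAD3 and TEAD4, and the Vestigial-like cofactors VGLL1, VGLL3 and VGLL4. All 9 were found among the 16686 gene symbols of the expression table, and all 9 passed the filter on low values. RNA-seq had been done on N/TERT2G, a line of human skin keratinocytes immortalized with telomerase and grown in EpiLife medium with a keratinocyte growth supplement. The 4 siYT libraries (A to D) came from cells given SMARTpool siRNAs, mixtures of several siRNAs per target, against YAP1 and against WWTR1. The 3 siCON libraries (A to C) came from cells given a non-targeting siRNA. Both groups received 8 pmol per cm2 with Lipofectamine RNAiMAX one day after plating and were collected 48 h later, so the groups share the reagent and the line, and no untransfected cells were analysed here.

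The Hippo pathway is a kinase cascade that holds YAP1 and TAZ in the cytoplasm or sends them for degradation. Neither protein binds DNA by itself. In the nucleus they attach to TEAD factors, which recognise short MCAT elements in enhancers and promoters, and so raise transcription of genes for growth, matrix and cytoskeleton. The VGLL proteins have no DNA-binding domain either and reach the same TEAD surface through a short Tondu motif, so that they can compete with YAP1 and TAZ for TEAD. In the epidermis YAP1 and TAZ are known for keeping basal keratinocytes proliferating.

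Because the core of the MCAT element is a defined string of letters, the promoters of the 9 genes were read for it. RefSeq promoter windows (GRCh38.p14, 250 bases before to 50 bases after a transcription start) were at hand for 7 of the genes, 13 windows in all, and none was used for TEAD1 and TEAD4. The string GGAATG, searched on both strands, lay in 2 of the 13 windows, one of VGLL1 and one of YAP1, against 14% of all 35116 windows. The count was thus near the share among all windows. By gene it was 2 of 7, beside 16.7% of all genes with windows. With so few genes, neither count sets them apart. The AP-1 string TGANTCA, also searched on both strands, lay in 0 of the 13 windows and in 7.71% of all windows. Both windows with a match are shown in full, and the capitals mark the matched bases. YAP1 was itself a target of the siRNAs, and whether either match bears on a change in signal was not tested. In VGLL1 the match was on the minus strand, so that the printed strand reads CATTCC, beginning 157 bases before the start. In YAP1 it was on the plus strand, beginning 162 bases before the start.
VGLL1 promoter, chrX:136531965-136532264, plus strand: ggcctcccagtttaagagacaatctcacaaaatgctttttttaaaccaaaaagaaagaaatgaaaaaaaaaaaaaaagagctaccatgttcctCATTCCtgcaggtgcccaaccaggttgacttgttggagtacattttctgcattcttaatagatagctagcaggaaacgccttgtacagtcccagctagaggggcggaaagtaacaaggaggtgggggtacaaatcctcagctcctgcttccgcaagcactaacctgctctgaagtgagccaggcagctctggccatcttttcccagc
YAP1 promoter, chr11:102110197-102110496, plus strand: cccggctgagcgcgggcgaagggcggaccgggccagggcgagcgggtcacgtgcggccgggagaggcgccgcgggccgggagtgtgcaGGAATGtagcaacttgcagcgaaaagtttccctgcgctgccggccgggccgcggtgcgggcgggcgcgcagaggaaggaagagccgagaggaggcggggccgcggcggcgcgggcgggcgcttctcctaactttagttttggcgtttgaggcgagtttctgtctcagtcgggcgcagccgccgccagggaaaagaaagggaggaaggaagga
A match is a run of letters and not a measured binding site, and a window without one says nothing of elements elsewhere in the gene.

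Signal here means the authors' TMM-normalized value of a gene (TMM, the trimmed mean of M values, sets a factor for each library), close in scale to CPM, from approximately 20700000 to 23900000 reads per library. A call needed both a limma p under 0.05 after Benjamini-Hochberg adjustment across the 13072 genes that were tested and a change of at least 1.5-fold on the log2(value + 0.5) scale. By this rule 27.4% of all genes tested were called, 14.1% higher and 13.2% lower in siYT. The 7 libraries carried keratinocyte markers at a summed signal of 64393 to 67415 in siCON and 65166 to 68267 in siYT, and of the 13 markers tested 4 rose, 1 fell and 8 did not pass. Melanocyte markers were represented by PMEL alone (0.991 to 1.41 in siCON, 0.739 to 1.66 in siYT) and endothelial and immune markers almost wholly by CD68 (summed 45.8 to 51.8 and 47.8 to 58.7), and neither gene was called. Fibroblast markers summed to 227 to 256 in siCON and 186 to 193 in siYT, nearly all of it COL1A1 and DCN. Of the 4 fibroblast markers tested, COL3A1 (2.03 to 0.33) and DCN (139 to 86.5) fell and COL1A2 (1.02 to 1.97) rose. COL1A1 (97.8 to 100) was not called, LUM and PDGFRA were absent, and PDGFRB was below the filter. These genes had no common direction, and whether cell make-up has a part in the values below was not tested. Of the 9 genes, 4 fell (YAP1, WWTR1, TEAD4 and VGLL1), 0 rose and 5 were not called. YAP1 and WWTR1 were the siRNA targets, so their falls were built into the design. All 9 had limma p-values, adjusted and unadjusted, under 0.05, 3 with positive and 6 with negative changes. Among all genes tested, 69.6% had an adjusted p under 0.05. The 5 not called were TEAD2, TEAD3 and VGLL4 with positive changes and TEAD1 and VGLL3 with negative ones. With the targets included, the median log2 fold change of the 9 was −0.55, where that of all genes tested was 0.0033. In 8 of the 9, all but TEAD1, the 2 groups were fully separate, as they were for 68.7% of all genes tested.

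**Figure D1:**
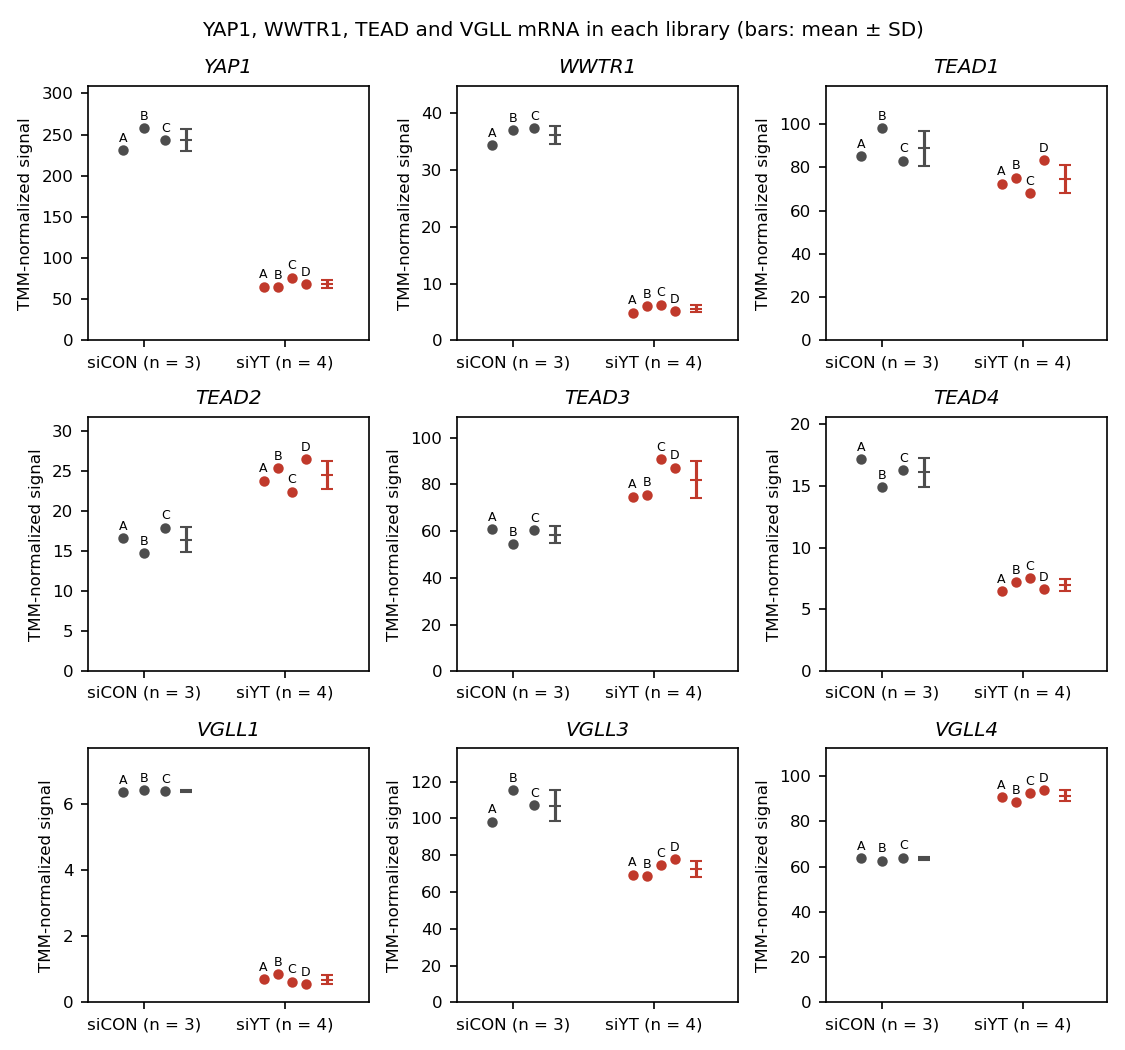
TMM-normalized signal (vertical axes, each from 0) of the 9 genes in each siCON library (grey, A to C) and siYT library (red, A to D), with bars for mean ± SD. YAP1, WWTR1, TEAD4, VGLL1 and VGLL3 are lower in every siYT library than in any siCON library, TEAD2, TEAD3 and VGLL4 are higher in every siYT library, and only TEAD1 has overlapping groups.

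Both siRNA targets fell, and WWTR1 by the larger factor. YAP1 (chr11:101981192-102104154, hg19, plus strand), the more abundant co-activator here, had a signal of 231, 258 and 243 in siCON A, B and C and of 65.2, 64.5, 76.2 and 68.1 in siYT A to D. The groups lay far apart, with siYT C the highest of its group. From a mean of 243.8 ± 13.3 (SD, n = 3) to 68.5 ± 5.38 (n = 4), 28.1% of the siCON signal was left, a log2 fold change of −1.83 ± 0.06 (SE, limma adjusted p = 1.60e-12). That fall had rank 127 by size among the 6501 genes tested with a negative change, and YAP1 went from percentile 95.9 to percentile 78.4 of signal among genes tested. In bulk RNA, a lower signal in every cell and a loss confined to a share of the cells cannot be told apart.

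WWTR1 (chr3:149235022-149454501, minus strand) encodes TAZ, the paralog of YAP1 that shares its TEAD-binding and WW domains. Its signal was 34.4, 36.9 and 37.3 in siCON and 4.90, 6.0, 6.30 and 5.19 in siYT A to D, so that the highest siYT library stood far under the lowest siCON library. Of the siCON mean of 36.2 ± 1.6, 15.5% was left (5.60 ± 0.66, log2 fold change −2.59 ± 0.09 SE, limma adjusted p = 2.26e-12). The gene overlaps WWTR1-AS1 on the opposite strand, which was not among the gene symbols of the expression table. No source used here says whether counting was strand-specific, so reads of the antisense RNA could not be separated.

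The residual co-activator mRNA thus leaned further toward YAP1. Taken within each library, where the scaling of libraries cancels, the signal of WWTR1 relative to YAP1 was 0.149 ± 0.0051 in siCON and 0.0818 ± 0.0082 in siYT. On the log2 scale the ratio was −2.75, −2.80 and −2.70 in siCON and −3.73, −3.43, −3.60 and −3.71 in siYT. No siYT library reached the siCON range, and the difference of −0.87 (1.82-fold) had a two-sided exact permutation p of 0.0571 over the 35 arrangements of 7 libraries, the smallest p that 3 against 4 allows. Divided by transcript length, WWTR1 made up 13.7% ± 0.40 of co-activator mRNA in siCON and 8.06% ± 0.74 in siYT.

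**Figure D2:**
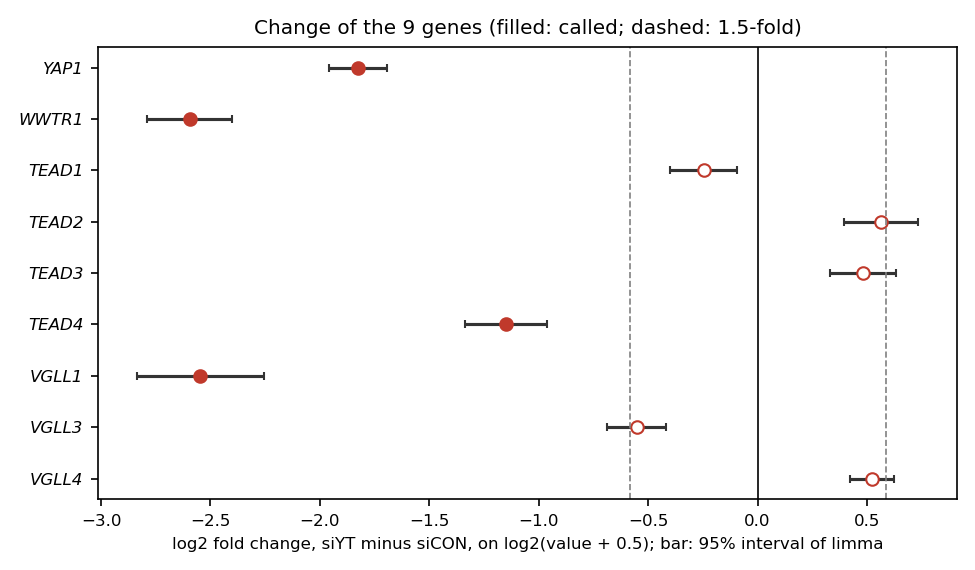
Log2 fold change of the 9 genes, siYT minus siCON, on log2(value + 0.5) (horizontal axis), with limma's 95% intervals as bars, filled points for called genes and dashed lines at 1.5-fold. The intervals of YAP1, WWTR1, TEAD4 and VGLL1 lie wholly below the lower line, and those of TEAD2, TEAD3, VGLL3 and VGLL4 cross a line.

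The TEAD genes did not share a direction. TEAD4 fell, TEAD2 and TEAD3 had more signal in siYT but were not called, and TEAD1 had slightly less. TEAD4 (chr12:3068496-3149839, plus strand), known in mice for its need in the trophectoderm of the early embryo, had a signal of 17.1, 14.8 and 16.2 in siCON and 6.47, 7.22, 7.55 and 6.62 in siYT. The groups were well separated and the siYT libraries lay close together. The mean passed from 16.1 ± 1.14 to 6.96 ± 0.50, with 43.4% left (log2 fold change −1.15 ± 0.09 SE, 95% interval −1.34 to −0.96, limma adjusted p = 1.29e-08). By size it had rank 393 among genes with a negative change.

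TEAD1 (chr11:12695969-12966298, plus strand), a TEAD factor with known roles in heart and other muscle, was the member with the least difference. Its signal was 85.3, 98.1 and 83.1 in siCON and 72.6, 75.2, 68.0 and 83.5 in siYT. The groups overlapped, because siYT D lay just above siCON C. The means were 88.8 ± 8.08 and 74.8 ± 6.49, a 1.19-fold difference (log2 fold change −0.25 ± 0.07 SE, interval −0.40 to −0.09). Its limma adjusted p was 0.00604, and it was above 0.05 with equal totals (0.0991) and without siCON B (0.0518). TEAD1 was far from the fold threshold and was not called, and 69.6% of all genes tested had an adjusted p under 0.05.

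TEAD2 and TEAD3 lay on the other side of 0. TEAD2 (chr19:49843852-49865714, minus strand), a factor of the early embryo and neural development in mice, had a signal of 16.6, 14.8 and 17.9 in siCON and 23.8, 25.4, 22.4 and 26.5 in siYT. TEAD3 (chr6:35441374-35464853, minus strand), known for its expression in placenta, had 60.7, 54.5 and 60.5 in siCON and 74.8, 75.6, 90.7 and 87.1 in siYT. Neither gene had overlapping groups, and TEAD3 was higher in siYT C and D than in siYT A and B. The differences were 1.48-fold for TEAD2 (16.5 ± 1.58 to 24.5 ± 1.76, log2 fold change 0.56 ± 0.08 SE, limma adjusted p = 1.25e-05) and 1.39-fold for TEAD3 (58.5 ± 3.54 to 82.0 ± 8.05, log2 fold change 0.48 ± 0.07 SE, limma adjusted p = 1.98e-05). Both were short of 1.5-fold and were not called, but the interval of each (0.39 to 0.73 and 0.33 to 0.63) took in the threshold of 1.5-fold. Both passed it when libraries were rescaled to equal totals (0.67 and 0.59), a scaling that moved the median of all genes by 0.108. TEAD2 also passed it without siCON C (0.63), without siYT C (0.60) and with the trend on transcript length removed (0.70). TEAD2 overlaps CD37 and DKKL1 on the opposite strand, and neither was among the gene symbols of the expression table.

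In the mix of TEAD mRNA, TEAD3 held a larger and TEAD4 a smaller share in siYT. Shares were computed within each library from the signal per kb of the longest annotated transcript. TEAD3 held 44%, 42.0% and 44.1% of TEAD signal per kb in siCON and 54.1%, 52.8%, 59.3% and 55.3% in siYT. TEAD4 held 21.7%, 20.0% and 20.7% in siCON and 8.18%, 8.80%, 8.62% and 7.34% in siYT. Both shares were separate between the groups, and siYT C had the largest TEAD3 share. The mean shares moved by 12.0 percentage points for TEAD3, −12.5 for TEAD4, 5.42 for TEAD2 (14.9% ± 1.03 to 20.3% ± 1.64) and −4.89 for TEAD1 (20.9% ± 2.65 to 16.1% ± 1.30). Each of the 4 shares had an exact two-sided permutation p of 0.0571, the smallest possible, and 0.0571 again after adjustment over the 4. With signal not divided by length the difference was −9.63 percentage points for TEAD1 and −5.23 for TEAD4. TEAD4 and TEAD1 were at about the same level per kb in siCON (ratio 1.0 ± 0.15), and in siYT TEAD4 stood at 0.517 ± 0.073 of TEAD1. The summed TEAD signal per kb was 45.2 ± 1.54 in siCON and 49.5 ± 2.95 in siYT, and the groups were separate by a narrow gap, the lowest siYT library (A) being at 46.3 and the highest siCON library (A) at 46.2.

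**Figure D3:**
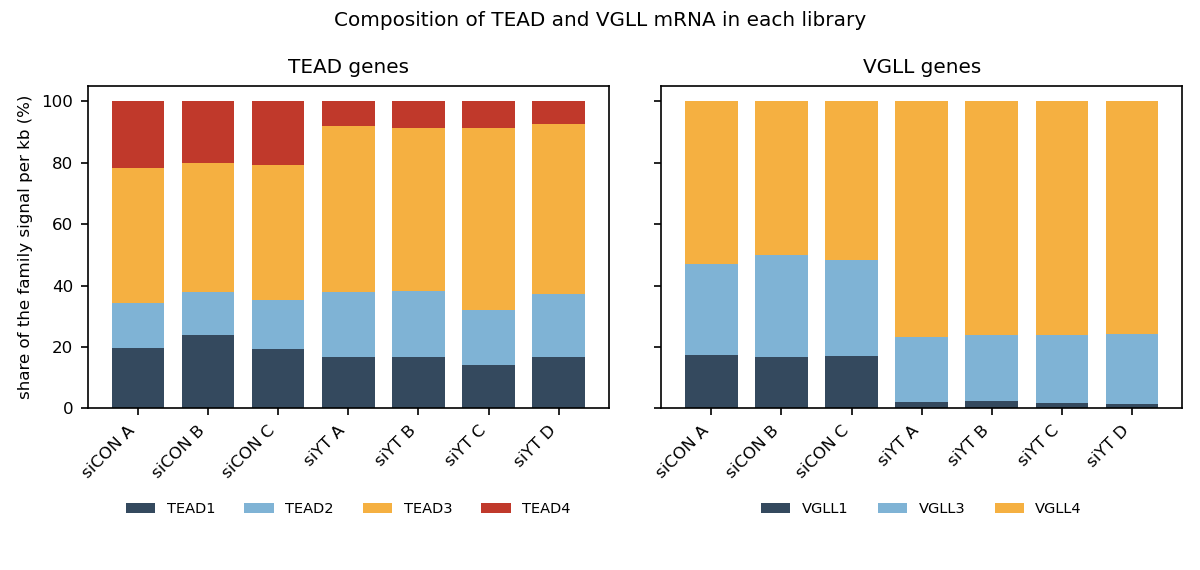
Share of the family's summed signal per kb (vertical axis, percent) held by each TEAD gene (left) and each VGLL gene (right) in the 3 siCON and 4 siYT libraries. TEAD4 holds 20.0% to 21.7% in siCON and 7.34% to 8.80% in siYT, and VGLL4 holds 49.9% to 53.0% and 75.7% to 76.8%.

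Measured against its DNA-binding partners, co-activator mRNA was far lower in siYT. The summed signal per kb of YAP1 and WWTR1 was 52.3 ± 2.72 in siCON and 13.8 ± 1.08 in siYT. Its ratio to the summed TEAD signal per kb was 1.07, 1.27 and 1.14 in siCON and 0.282, 0.274, 0.30 and 0.258 in siYT. Co-activator mRNA was thus slightly above TEAD mRNA in every siCON library and well under it in every siYT library. The log2 ratio differed by −2.06 (4.16-fold), with an exact two-sided permutation p of 0.0571, again the smallest possible. Both siRNA targets form the upper part of this ratio, so its fall was built into the design. Its p therefore tests no more than the knockdown.

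The Vestigial-like cofactors spanned log2 fold changes from −2.55 to 0.52. VGLL1 (chrX:135614311-135638966, plus strand), which binds TEAD in a manner much like YAP1, fell to a low signal in every siYT library. Its signal was 6.35, 6.41 and 6.39 in siCON and 0.706, 0.863, 0.622 and 0.548 in siYT. No other member lost a larger part of its siCON mean, with 10.7% left (6.38 ± 0.03 to 0.68 ± 0.13, log2 fold change −2.55 ± 0.14 SE, interval −2.84 to −2.26, limma adjusted p = 2.29e-10). On the log2(value + 0.5) scale the fall was 5.84-fold, and the plain ratio of means was 9.32-fold, since the added constant weighs on so low a gene. In siYT the gene stood at 15 to 22 times the lowest value of a library, against 139 to 145 times in siCON. If that lowest value is near a single read, counting error alone gives a CV of 24.1% in siYT and of 8.40% in siCON, where the observed CVs were 19.7% and 0.485%. The close agreement of the 3 siCON libraries was therefore tighter than such counting would give. VGLL1 went from percentile 21.9 to percentile 0.398 of signal among genes tested, and it was already the lowest of the 9 genes in siCON. Genes averaging under 1 over the 7 libraries were left out of that ranking. VGLL1 passed this filter through its siCON signal, so its percentile in siYT is set in part by the filter.

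VGLL3 and VGLL4 differed in opposite directions and neither was called. VGLL3 (chr3:86987119-87040269, minus strand), a cofactor linked to immune gene expression in skin, had a signal of 98.3, 115 and 107 in siCON and 69.4, 68.6, 74.5 and 77.9 in siYT. The groups did not overlap and the means were 107 ± 8.47 and 72.6 ± 4.41. This was a 1.47-fold difference (log2 fold change −0.55 ± 0.06 SE, limma adjusted p = 1.15e-06) whose interval, −0.69 to −0.42, took in the threshold. VGLL3 passed 1.5-fold without siCON A (−0.61), without siYT D (−0.59) or with the trend on transcript length removed (−0.69).

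VGLL4 (chr3:11597544-11762220, minus strand), known as a repressor that competes with YAP1 for TEAD, had the least relative spread of the 9 genes in siYT. Its signal was 63.7, 62.6 and 63.9 in siCON and 90.6, 88.3, 92.5 and 93.6 in siYT. All siYT libraries lay within a narrow band well above siCON. The means were 63.4 ± 0.68 and 91.3 ± 2.33, 1.44-fold higher in siYT (log2 fold change 0.52 ± 0.05 SE, interval 0.42 to 0.62, limma adjusted p = 9.96e-08). With equal totals the value was 0.63, past the threshold. VGLL4 overlaps the autophagy gene ATG7 on the opposite strand, whose signal was 38.3, 34.7 and 32.5 in siCON and 25.3, 25.6, 25.7 and 25.4 in siYT, lower where VGLL4 was higher.

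Per kb, the summed VGLL signal overlapped between the groups while its make-up differed. The sum was 32.6 ± 0.71 in siCON and 31.7 ± 0.91 in siYT. VGLL4 held 53.0%, 49.9% and 51.6% of it in siCON and 76.8%, 76.2%, 76.1% and 75.7% in siYT. VGLL1 held 17.1% ± 0.29 and 1.90% ± 0.43, and VGLL3 31.4% ± 1.82 and 21.9% ± 0.72. The repressor's share was thus larger and both other shares were smaller in every siYT library. Set against co-activator mRNA, VGLL4 stood at 0.322 ± 0.019 of the YAP1 and WWTR1 sum in siCON and at 1.76 ± 0.11 in siYT. The siRNA targets are the divisor here, so a rise of this ratio was largely built into the design, and it was not tested.

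**Figure D4:**
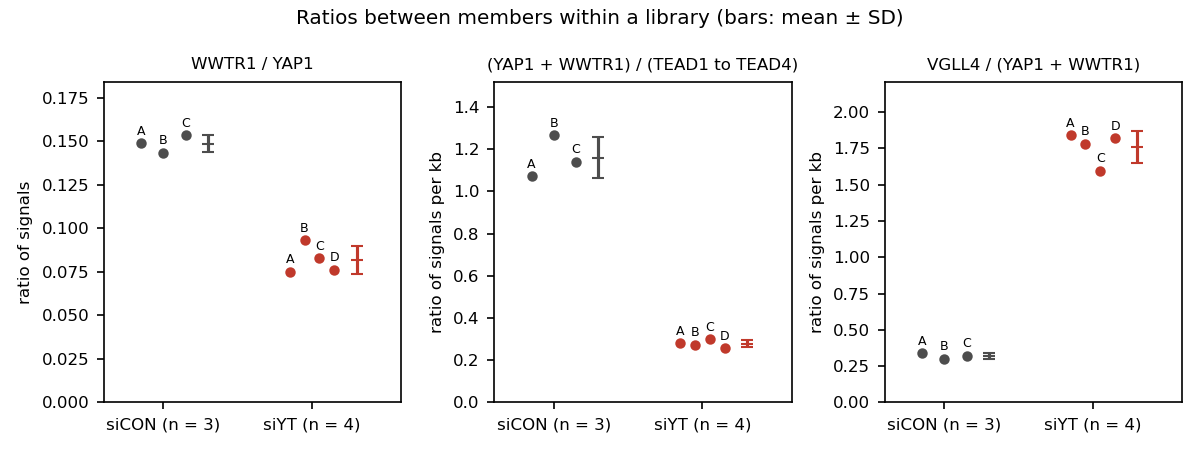
Ratios within each library (vertical axes, linear, from 0) of WWTR1 to YAP1 signal (left), of co-activator to TEAD signal per kb (middle) and of VGLL4 to co-activator signal per kb (right), with bars for mean ± SD. The first ratio is near 0.149 in siCON and 0.0818 in siYT, the second passes from 1.16 to 0.279 and the third from 0.322 to 1.76, with no overlap between groups.

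The order of the 9 genes by signal per kb differed between the groups. In siCON the order was YAP1 (45.1 ± 2.47), TEAD3 (19.6 ± 1.19), VGLL4 (16.8 ± 0.18), VGLL3 (10.2 ± 0.81), TEAD1 (9.43 ± 0.86), TEAD4 (9.39 ± 0.67), WWTR1 (7.19 ± 0.32), TEAD2 (6.74 ± 0.65) and VGLL1 (5.58 ± 0.03). Within it, VGLL3 and TEAD1, TEAD1 and TEAD4, and WWTR1 and TEAD2 did not differ beyond their spread. In siYT the order was TEAD3 (27.5 ± 2.70), VGLL4 (24.2 ± 0.62), YAP1 (12.7 ± 1.0), TEAD2 (10.1 ± 0.72), TEAD1 (7.94 ± 0.69), VGLL3 (6.96 ± 0.42), TEAD4 (4.07 ± 0.30), WWTR1 (1.11 ± 0.13) and VGLL1 (0.60 ± 0.12), and only TEAD1 and VGLL3 overlapped as neighbours. YAP1, first by a wide margin in siCON, was behind TEAD3 and VGLL4 in siYT, and TEAD2 had rank 8 in siCON and rank 4 in siYT.

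Each gene's course over the 7 libraries was set beside that of 10762 other genes with a mean of at least 5. The libraries fall into 2 groups, so any gene that separates the groups cleanly has a high correlation, and the values are a description. VGLL1, WWTR1, VGLL4, YAP1 and TEAD4 each had 16.3% to 19.3% of these genes at a Pearson r of 0.95 or more, VGLL3, TEAD2 and TEAD3 had 3.57% to 5.88%, and TEAD1 had 18 genes (0.167%). TEAD1 was therefore the member whose course few genes followed, with TMEM68 closest (r = 0.975), then RAB5A and BTD. The closest to YAP1 were the transcription factor gene ETS1, the activin-binding follistatin gene FST and RCN1, each with r above 0.999. The closest to WWTR1 were HSPD1, GNL3 and CSNK2B, and to VGLL1 they were NCBP2, PAICS and IDI1. TEAD4 was followed most closely by SPRR2D, FLII and C8orf58, and TEAD2 by FOXK1, SIRPB1 and MOB4. RHBDF2, CHERP and INF2 were closest to TEAD3, UGCG, UBE3A and PLAGL1 to VGLL3, and BCAM, MLXIP and ACSS1 to VGLL4.

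Among genes that YAP1 and TAZ are known to switch on through TEAD, more fell than rose. Of 24 YAP1/TAZ-TEAD target genes tested, 13 fell and 3 rose, while 8 were not called, and the median log2 fold change was −0.73. The share lower stands beside 13.2% among all genes tested and the share higher beside 14.1%. TGFB2, a TGF-beta ligand, fell most, from 73.1 ± 8.22 to 1.91 ± 0.99 (32.2-fold, limma adjusted p = 1.63e-11), followed by CTGF, a matricellular protein and the usual reporter of YAP1 activity (23.4 ± 2.94 to 1.81 ± 2.06, 13.4-fold). The siYT values of CTGF were uneven, at 0.498, 0.471, 4.82 and 1.46 in siYT A to D. Without siYT C the siYT mean of CTGF was 0.81 and the fall 19.2-fold. CYR61, its relative in the CCN family, fell from 231 ± 15.7 to 30.6 ± 10.7 and FST from 90.0 ± 3.66 to 11.4 ± 1.79. In siYT C, which had the most YAP1 signal of its group, TGFB2 (3.31), CYR61 (46.3) and FST (13.7) were also at their highest in siYT. Not all of the 13 targets that fell were highest there, the order rests on that library alone, and a link to YAP1 signal was not tested. ANKRD1 and TNNT2 were below the filter.

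Genes upstream of YAP1 and TAZ had no common direction. Of 29 Hippo kinases and upstream regulators tested, 3 rose and 5 fell, while 21 were not called, and the median was −0.10. The 8 called of 29 were close to the 27.4% called among all genes tested, so the count does not set the list apart, and the genes below are given for their own values. AMOTL2, an angiomotin family protein that binds YAP1 and is also among the target genes, fell from 122 ± 3.23 to 20.2 ± 2.93 (5.96-fold). The atypical cadherin gene FAT4 fell 2.12-fold (11.8 ± 2.13 to 5.29 ± 0.75) and STK3, which encodes the Hippo kinase MST2, fell 2.03-fold (62.0 ± 1.44 to 30.3 ± 1.30). WWC2, a relative of the scaffold KIBRA that activates the kinases, rose 1.93-fold (25.4 ± 3.64 to 49.3 ± 1.89). AMOT was below the filter.

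Of 27 other nuclear partners of YAP1, TAZ or TEAD tested, 6 rose and 0 fell, while 21 were not called, and the median was 0.22, beside 14.1% higher and 13.2% lower among all genes tested. Of those with a negative change, 8 had an unadjusted limma p under 0.05 without reaching 1.5-fold. KLF4, a factor of epidermal differentiation, rose from 79.2 ± 0.33 to 181 ± 18.4 (2.28-fold). The study itself reports that this knockdown raised KLF4 mRNA and protein. The p53 relative TP73 rose from 16.4 ± 0.60 to 27.1 ± 1.35 and the acetyltransferase gene CREBBP from 48.1 ± 1.53 to 77.6 ± 5.63. TCF4, counted among the 6 by its symbol, rose from 17.5 ± 1.14 to 27.0 ± 1.41. That symbol is the gene of an E-box factor, and its place among the partners was not checked. The rises of TP73, CREBBP and TCF4 were 1.53-fold to 1.63-fold. TCF4 was short of 1.5-fold without siCON C (0.58), with the length trend removed (0.48) and with 2 added to each value (0.58), and CREBBP with the length trend removed (0.54). No call was made among the 16 genes for 14-3-3 proteins, which hold phosphorylated YAP1 and TAZ in the cytoplasm, and for the machinery that degrades both. Of these 16, 8 had a limma adjusted p under 0.05 and 9 an unadjusted p under 0.05, all with changes under 1.5-fold, and the median of the list was −0.073. Among all genes tested 69.6% had an adjusted p under 0.05, a larger share than in this list. The most abundant were YWHAZ (1452 ± 70.6 to 1500 ± 48.6, limma adjusted p = 0.490) and SFN, the keratinocyte 14-3-3 sigma (1090 ± 94.3 to 1238 ± 52.9, limma adjusted p = 0.0206).

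**Figure D5:**
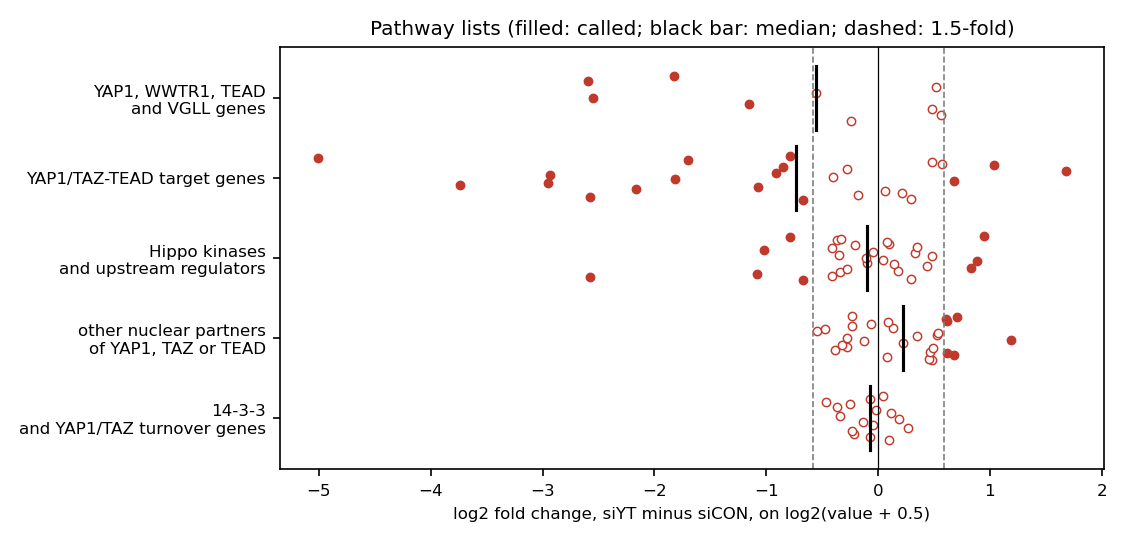
Log2 fold change (horizontal axis, siYT minus siCON, on log2(value + 0.5)) of each tested gene in the 9-gene group and in 4 pathway lists, with called genes filled, list medians as black bars and dashed lines at 1.5-fold. The target genes reach furthest to the left with a median of −0.73, the nuclear partners have 6 called genes to the right and 0 to the left, and the 14-3-3 and turnover genes all lie between the dashed lines.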

How the data were processed

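Polyadenylated RNA of 7 libraries (3 siCON, 4 siYT) was sequenced with a TruSeq mRNA kit. The tools listed in the submitters' processing notes are Partek 8.0.19.0819, STAR 2.6.1 and cutadapt 1.18, and the build is hg19. The study's methods differ on the trimmer and the Partek release. Genes with few reads were removed, and the deposited values are a TMM-normalized signal, close in scale to CPM, with library totals of 866098 to 955106. Between 81.9% and 82.8% of low values were within 0.05 of a whole multiple of a library's lowest value. That was too few to recover reads for the whole table, so no count model was used. Of the 63 values of the 9 genes, 61 were this close to a whole multiple. Read numbers are total over lowest value, and percentages of counting error cover counting only. The authors' comparison table (p-values, q-values, a ratio, fold changes and group means) was not used.

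The table held 18478 entries, and 1792 repeats of a symbol, identical in value, were dropped. Genes averaging at least 1 (13072) were tested on log2(value + 0.5) with limma 3.58.1 (empirical Bayes with trend, R 4.3.3, statmod 1.5.0), without covariates. The WWTR1 to YAP1 ratio, the TEAD shares and the co-activator to TEAD ratio used exact permutation over libraries. The VGLL shares, the WWTR1 share, the VGLL4 to co-activator ratio and the TEAD4 to TEAD1 ratio were not tested. Transcript lengths are the longest in GENCODE on GRCh37. Gene positions are those of the table. The fit was tested on simulated data. Alternatives were other pseudocounts, filters, scalings and lengths, a fit without trend, array weights and a length-trend correction. Further ones were a replicate block, siYT A and B as 1 replicate, and leaving out each library.

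The members, the lists (YAP1/TAZ-TEAD target genes, Hippo kinases and upstream regulators, 14-3-3 and turnover genes, nuclear partners, and keratinocyte, fibroblast, melanocyte, endothelial and immune markers) and the tests were chosen with earlier results of these data known. Named were the 9 members, up to 4 called genes of each pathway list with the largest change (the 2 most abundant where fewer than 2 were called), and for each member the 3 genes of highest r. Marker genes were named after their values were seen. Replicates are labelled by letters, and the reporting summary describes wells plated together, so the p-values cover no more than the spread among these libraries, possibly technical. siYT A and B had a mean squared difference of 1.53 in units of counting variance (other pairs 2.53 to 3.94). This pair was thus the closest, and whether its libraries are independent is not known. Both were kept and count separately in the p-values given. With siYT A and B taken as 1 replicate, 3650 genes were called.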

Additional observations from a re-analysis of the deposited data

Results flagged for a closer look

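Among 26 groups of 4 siYT values checked for a sample far from the rest (chance alone marks about 1 group in 20), 1 stood out. TEAD1 held 14.1% of TEAD signal per kb in siYT C, and 16.6%, 16.7% and 16.8% in siYT A, B and D, so the gap to the nearest library was 0.943 of the range. The same library had the largest TEAD3 share, 59.3%. Without siYT C the TEAD1 share differed by −4.24 percentage points between the groups.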

How the results depend on the processing

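Over 19 alternatives per gene, 170 values of the 9 genes were computed, VGLL1 not being tested at a minimum mean of 5. All 170 kept their direction, 0 lost a call, and 160 kept their call or lack of one, among them every value of YAP1, WWTR1, TEAD1, TEAD4 and VGLL1. TEAD1, never called, had an adjusted p from 5.91e-05 (replicate block) to 0.0991 (equal totals), and it was also above 0.05 without siCON B (0.0518). The other 10 passed 1.5-fold where the deposited values had not. With equal totals these were TEAD2 (0.67), TEAD3 (0.59) and VGLL4 (0.63), a scaling in which 64.7% of 3621 called genes were higher, against 51.6% of 3579. With the length trend removed they were TEAD2 (0.70) and VGLL3 (−0.69). Leaving out each library in turn gave 0.49 to 0.63 for TEAD2 and −0.61 to −0.50 for VGLL3. Same-letter correlations of the deviations from the group mean were 0.106, 0.0557 and 0.219 for A, B and C. Those between other letters ran from −0.191 (siCON C with siYT B) to 0.127 (siCON A with siYT B), nearly all of them negative. Because the ranges overlap, the correlations do not decide whether the replicate letters pair the samples. A replicate block by letter, which drops siYT D, gave −0.59 for VGLL3, past the threshold as it was without siYT D alone, and changed no other call of the 9 genes. With the block 3535 genes were called, 3421 of them among the 3579. Over the alternatives the number called was 2824 to 4001, and 9101 by adjusted p alone, a setting chosen after seeing the data, as was the canonical transcript length. Of 64 alternative values of the ratios and shares that were tested, 62 moved by less than the spread between replicates. The VGLL shares and the other untested ratios were not among them. The exceptions, with signal not divided by length, were the TEAD1 share (−9.63 percentage points) and the TEAD4 share (−5.23). For 14 named pathway genes, 264 values under the same alternatives were computed after seeing the data. Of these, 259 kept the call and direction and 4, of TCF4 and CREBBP, lost the call, while YWHAZ changed sign with the length trend removed (−0.022, adjusted p = 0.756, not called either way). Depth limits VGLL1 most, and transcript lengths covered 89.1% of genes tested. No p under 0.0571 is possible for ratios and shares, so their p-values say nothing of stability.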
